A study of Caenorhabditis elegans with 52 samples.

Results

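The high-salt *prde-1* library was set against the low-salt *prde-1* library, nucleosome by nucleosome, for histone H3 in isolated germ nuclei of young adult *C. elegans*. Nucleosomes from the 2 lists were paired when their centres on chromosomes I to V or X were mutual nearest neighbours within 40 bp. This gave 358321 paired nucleosomes, which is 63.0% of the 568635 nucleosomes in the high-salt list and 65.7% of the 545572 in the low-salt list. The median distance within a pair was 16 bp.

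High-salt *prde-1* was the mutant *prde-1*(mj207)V, strain SX2499, grown at 20 °C, with chromatin washed in 500 mM NaCl. Low-salt *prde-1* was the same strain washed in 150 mM NaCl, a concentration given in the methods of the study. Wild type was VC2010, washed at the same high and low salt. The study's methods state that *prde-1* animals become sterile over generations and were harvested later than wild type, once most of them carried a similar number of embryos, so genotype and harvest time cannot be told apart. Each group holds 2 H3 samples with 2 inputs, out of 52 samples in 28 groups in the series. For the high-salt samples the genotype field names the opposite genotype from the title and the strain, and the title was followed. In the merged library titled high-salt *prde-1*, the median H3 level upstream of piRNA genes was 0.72, near the 0.98 of low-salt *prde-1* and unlike the 4.96 of high-salt and the 3.08 of low-salt wild type, in units explained below. The authors merged the 2 replicates of each group before the nucleosomes were called. There is therefore 1 value per nucleosome and group and no spread between replicates, and every difference below is a description of merged libraries with no test.

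piRNAs are small RNAs that guide Argonaute proteins to foreign and self transcripts in the animal germ line. In *C. elegans* most piRNA genes are short individual transcription units in 2 domains of chromosome IV, and many carry a conserved upstream element known as the Ruby motif. Their transcription needs the upstream sequence transcription complex (USTC), which holds PRDE-1 together with TOFU-4, TOFU-5 and SNPC-4. A nucleosome is DNA wrapped around a core of histones, and more salt weakens the contacts between DNA and histones. Washes at high and low salt therefore compare how much H3 stays bound.

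The piRNA domains were runs of 100-kb windows with at least 20 annotated piRNA genes. Domain 1 is at IV:4800001-7000000 (ce11) with 2807 piRNA genes and 7867 pairs, and domain 2 at IV:13500001-17300000 with 11534 piRNA genes and 14653 pairs. The most frequent 8-base word 60 to 20 bases before the 5′ ends of these genes, on the gene's strand, was CTGTTTCA, the core of the Ruby motif. It was present in 5005 of 14341 windows (34.9%), and in 35.2% when both strands were searched. The same window held it in 0.157% of 19073 protein-coding genes outside the domains on the gene's strand, and in 0.210% on both strands. The runner-up ACTGTTTC is the same element shifted by 1 base. The windows below belong to piRNA genes whose upstream nucleosomes had the highest or lowest salt change in *prde-1* and are shown because some carry the word and some do not. They run from 57 to 28 bases before the 5′ end on the gene's strand, all on chromosome IV, with the word in capitals.
21ur-4891: gaaaatctttaCTGTTTCAatatgttcact
21ur-66: tagagtttaCTGTTTCAtcatatttttaga
21ur-2572: gtaaataacttCTGTTTCAatattttctta
21ur-10408: cattttttacagtttcaaggaattcatatg
21ur-10118: taaagcattgtacagtttcaaggaagtcgt

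The value of a nucleosome is the H3 occupancy at its summit minus input, never below 0, in the authors' scaled units. The median over the pairs was 158.8 in high-salt *prde-1* and 141.5 in low-salt *prde-1*, against 148.0 in high-salt and 144.7 in low-salt wild type. Because the authors scaled each library to one total, a loss of H3 across the genome could not be seen, and the number of reads behind a value is unknown. Each library was divided by its own median, which gives the H3 level used here, and the salt change is the log2 of high over low salt with 0.01 added to both levels. The 2 salts come from tables that were normalized separately. Nucleosomes at 0 made up 14.5% of pairs in high-salt *prde-1* and 17.1% in low-salt *prde-1*, and 15057 pairs were at 0 in both. The change of that last group is exactly 0 by construction, which holds many regional medians at 0, so medians over pairs above 0 in both *prde-1* libraries are given as well.

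Over all pairs the salt change of *prde-1* had quartiles of −1.24 and 1.29 around a median of 0. It was at least 2-fold higher at high salt in 101590 pairs (28.4%) and at least 2-fold lower in 103216 (28.8%). In wild type the same shares were 29.9% and 30.9%, with quartiles of −1.45 and 1.40. Among *prde-1* pairs above 0 in both libraries the median was −0.14. High- and low-salt levels in *prde-1* had a Spearman correlation of 0.39 across the 358321 pairs, and in wild type of 0.28. Neighbouring pairs share fragments, so these pairs are not independent. Single nucleosomes thus differed widely between the 2 merged libraries in both genotypes, and the rest of the results rest on groups of nucleosomes.

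In the piRNA domains the *prde-1* salt change was close to that of the rest of the genome. The median over 22520 domain pairs was −0.02, against 0 over 335801 pairs outside, and −0.17 against −0.14 when only pairs above 0 were kept. In *prde-1*, 27.6% of domain pairs were at least 2-fold higher and 31.3% at least 2-fold lower at high salt, against 28.4% and 28.6% outside. Wild type had a domain median of 0.35 and an outside median of 0, with 31.9% of domain pairs at least 2-fold higher and 22.6% at least 2-fold lower. Within *prde-1*, domain 1 had a median of 0 and domain 2 of −0.10. In wild type they had 0.22 and 0.40. Domain 2 was thus the one with the lower change in *prde-1* and the higher one in wild type.

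The upstream nucleosome of a piRNA gene, the paired dyad nearest to its 5′ end within 200 bp upstream, was found for 10766 of 14341 genes in the domains (75.1%), over 6882 distinct nucleosomes, at a median distance of 111 bp. Several genes share a nucleosome where genes lie close together. Its salt change in *prde-1* had a median of −0.29 with quartiles of −2.02 and 0.85. In wild type the median was 0.74, with quartiles of 0.02 and 1.29. Of these genes, 23.5% were at least 2-fold higher and 37.1% at least 2-fold lower at high salt in *prde-1*, beside 28.4% and 28.8% of all pairs. The wild-type shares were 37.1% and 11.1%. In bulk nuclei, a lower level in every nucleus and a loss from some of them cannot be told apart.

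The levels behind these changes set the genotypes apart more than the salt did. Upstream of piRNA genes the median H3 level was 0.72 in high-salt *prde-1* and 0.98 in low-salt *prde-1*, against 4.96 in high-salt and 3.08 in low-salt wild type. The share of these nucleosomes at 0 was 22.4% in high-salt and 18.5% in low-salt *prde-1*, against 4.10% in high-salt and 4.00% in low-salt wild type. In *prde-1* the piRNA upstream nucleosome was thus close to or below the median nucleosome of its library, and in wild type well above it.

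**Figure D1:**
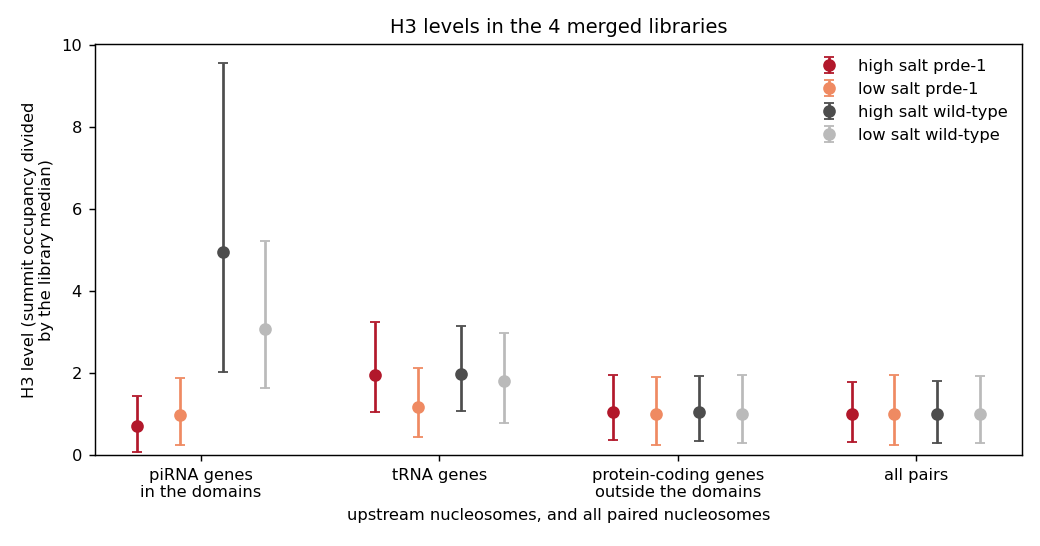
Median H3 level (summit occupancy divided by the library median, y axis) upstream of piRNA genes in the domains, upstream of tRNA genes, upstream of protein-coding genes outside the domains, and over all pairs, with bars from the lower to the upper quartile over genes or pairs, in the 4 merged libraries. Upstream of piRNA genes both *prde-1* libraries are below 1 and both wild-type libraries above 3; upstream of tRNA genes low-salt *prde-1* is the lowest of the 4.

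The *prde-1* change was lower in domain 2 than in domain 1, and similar on both sides of the 5′ end. Upstream nucleosomes had a median change of 0 in domain 1 (2064 genes, quartiles −1.88 and 1.12) and −0.33 in domain 2 (8702 genes, quartiles −2.07 and 0.79) in *prde-1*, against 0.76 and 0.74 in wild type. For domain 1 the median over genes with pairs above 0 was −0.18. Downstream nucleosomes, the nearest within 200 bp on the other side of the 5′ end, had −0.25 in *prde-1* and 0.56 in wild type over 10268 genes. The 262 piRNA genes on chromosome IV outside the domains had an upstream median of −0.13 in *prde-1* and 0.44 in wild type, and the 413 on other chromosomes −0.14 and 0.

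The word made little difference to the *prde-1* change. Genes with CTGTTTCA in the window had a median of −0.30 (3887 genes, quartiles −2.14 and 0.92) and genes without it −0.28 (6879 genes, quartiles −1.92 and 0.81). In wild type the medians were 0.89 with the word and 0.60 without it.

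Among the piRNA upstream nucleosomes, those with the highest wild-type level had the lowest change in *prde-1*. When the 6882 upstream nucleosomes were put into 4 equal groups by the wild-type low-salt level, a library that does not enter the *prde-1* ratio, the *prde-1* median was 0 in the group lowest in wild type, then −0.28, −0.30 and −0.49 in the group highest in wild type. That library shares its list of called nucleosomes with low-salt *prde-1*, and the part of this in the order was not tested. Grouped by the wild-type high-salt level instead, which was added after the data had been seen, the medians were −0.03, −0.22, −0.28 and −0.42. In the group highest in low-salt wild type the median *prde-1* level was 0.94 at high salt and 1.33 at low salt, against 12.4 at high salt and 7.04 at low salt in wild type.

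Around the 5′ ends the mean level of paired *prde-1* dyads was lower at high salt in every 10-bp bin. Over the bins within 500 bp of the 5′ end it averaged 0.94 at high salt and 1.20 at low salt. Around protein-coding genes outside the domains the *prde-1* averages were 1.39 at high and 1.35 at low salt. The mean *prde-1* level over all pairs was also lower at high salt, at 1.26 against 1.37. The highest bin upstream of piRNA genes was at −180 to −171 bp at high salt, with 1.17, and at −160 to −151 bp at low salt, with 1.48. The bin with most upstream dyads was −140 to −131 bp at both salts, which held a dyad of 6.40% of genes at high and 7.18% at low salt, beside means of 4.01% over all bins in both. The bin with fewest between −130 and 49 bp was −70 to −61 bp in both, with 2.78% and 2.59%. The pairing holds the dyad positions at both salts close together, so their likeness is no result.

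**Figure D2:**
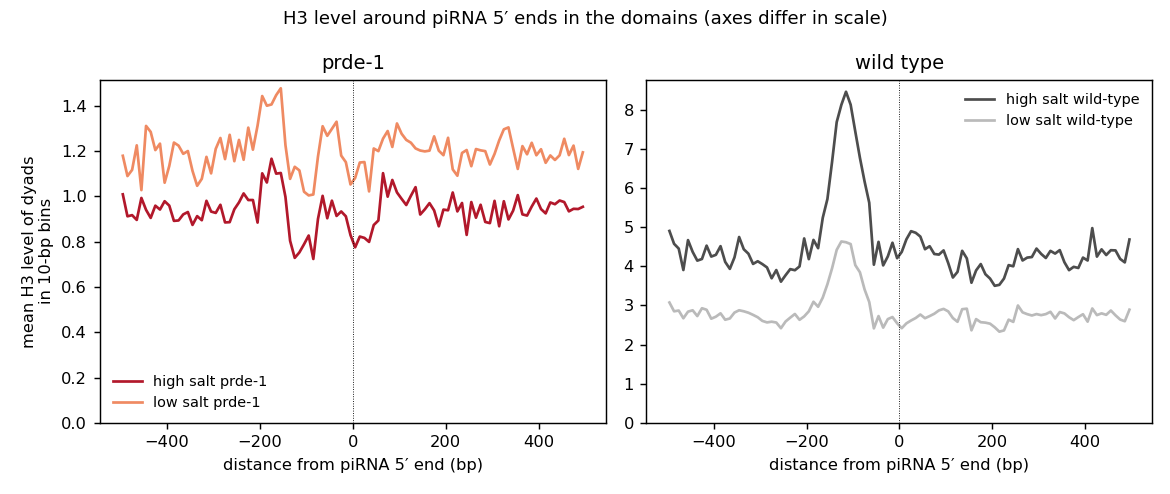
Mean H3 level of paired dyads in 10-bp bins (y axis, level divided by the library median) against distance from the 5′ end of piRNA genes in the domains (x axis, bp), for *prde-1* at its own summits on the left and wild type at the centres of the pairs on the right, on different scales. The high-salt line is below the low-salt line in *prde-1* (averages 0.94 and 1.20) and above it in wild type (averages 4.52 and 2.85).

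Single piRNA genes were chosen as the 4 highest and 4 lowest upstream changes among genes with a level above the median of such pairs. All 8 had 0 in one of the *prde-1* libraries. 21ur-4891 (IV:5966293-5966313, domain 1) had a dyad at IV:5966143 with an occupancy of 581 in high-salt and 0 in low-salt *prde-1*, against 474.5 in high-salt and 829 in low-salt wild type. 21ur-10408 (IV:13750653-13750673, in an intron of sorb-1) had 533 and 0 in *prde-1*, against 1391 and 687 in wild type. 21ur-4610 and 21ur-5138 (in an intron of dmd-6), both in domain 2, had 523 and 499 at high salt and 0 at low salt in *prde-1*. These 4 were the ones highest at high salt.

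At the other end, 21ur-66 (IV:14979662-14979682, domain 2) had 0 in high-salt and 534 in low-salt *prde-1*, against 509 in high-salt and 13.4 in low-salt wild type. 21ur-2572 (IV:16885811-16885831) had 0 and 533 in *prde-1*, against 390 and 337 in wild type. 21ur-10118 and 21ur-10191 had 0 at high salt in *prde-1*, and 583 and 565 at low salt. The word was present at 1 of the 4 genes chosen as highest and at 2 of the 4 chosen as lowest, and the size of these changes rests on the 0 in one library and the 0.01 added.

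Base composition moved with the salt change in *prde-1*. In 10 equal groups of pairs by the GC content of about 0.5 kb around the dyad, the *prde-1* median was −0.52 in the most AT-rich group (GC below 28.3%) and 0.40 in the most GC-rich group (GC above 42.3%). Wild type had −0.41 and 0.25 in the same groups. With the GC of the DNA of one nucleosome around the dyad, the *prde-1* medians were −0.38 and 0.14. The authors had corrected the libraries for GC content, and whether a rest of that bias enters here was not tested. The piRNA upstream nucleosomes are AT-rich, with a median GC of 27.9% over the nucleosome.

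Set beside nucleosomes of the same base composition, the piRNA upstream nucleosomes of *prde-1* were higher by one measure of GC and lower by the other. Upstream nucleosomes with a GC of 26.5% to 31.5% over about 0.5 kb had a *prde-1* median of −0.24 (3526 pairs), and pairs outside the domains in that range −0.36 (69983 pairs). Over the nucleosome, with a GC of 25.2% to 32.0%, the medians were −0.27 (3689 pairs) and −0.18 (89240 pairs). In wild type the piRNA upstream medians in these ranges were 0.75 and 0.73, and those outside −0.31 and −0.13. Spread was wider at the piRNA genes in *prde-1*, with quartiles of −1.93 and 0.86 in that last range, against −1.40 and 0.96 outside.

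Domain nucleosomes with no piRNA start within 1 kb had changes close to 0 in *prde-1*. For those nearer to one this held only with pairs at 0 included. The 10109 domain pairs that were not an upstream nucleosome but had a piRNA start within 1 kb had a median of −0.01 in *prde-1* and 0.15 in wild type. Over those above 0 in both *prde-1* libraries the *prde-1* median was −0.22. The 5529 domain pairs with no piRNA start within 1 kb had 0.05 in *prde-1* and 0 in wild type, and their median GC was 36.7%. Over those above 0 in both *prde-1* libraries the *prde-1* median was 0.03. Upstream nucleosomes of protein-coding genes inside the domains had 0.03 in *prde-1* (590 genes) and 0.14 in wild type. Protein-coding genes outside the domains had 0.01 and 0 over 12457 genes, with quartiles of −1.07 and 1.43 in *prde-1*.

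**Figure D3:**
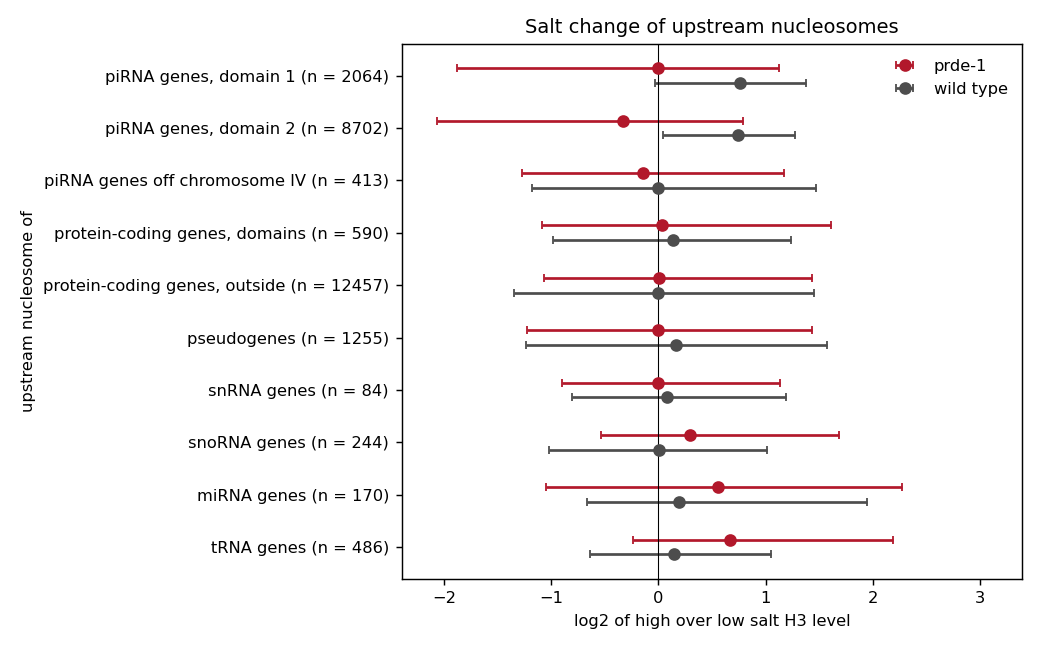
Median salt change (log2 of high over low salt H3 level, x axis) of the upstream nucleosome of each kind of gene (y axis), with bars from the lower to the upper quartile over genes, in *prde-1* (red) and wild type (grey). *prde-1* is left of wild type at piRNA genes (−0.33 against 0.74 in domain 2) and right of it at tRNA genes (0.66 against 0.15), and the bars overlap in every row.

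The 60 windows of 100 kb in the domains were mostly below 0 in *prde-1* by the mean level. The log2 ratio of mean levels at high over low salt in *prde-1* was below 0 in 46 of 60 domain windows, with a median of −0.14 and a range of −0.53 to 0.22. It was above 0 in 59 of 60 in wild type, with a median of 0.51. This ratio over all pairs was −0.12 in *prde-1*, near the domain median, and −0.03 in wild type. Over the 939 windows outside the domains the *prde-1* ratio was below 0 in 622, with a median of −0.07. The 20 domain windows with most piRNA genes (298 to 486) were all below 0 in *prde-1*, with a median of −0.29, and the 20 with fewest (17 to 178) had a median of −0.03 with 11 below 0. GC moved with the number of genes, with a median of 30.6% in the windows with most piRNA genes and 33.3% in those with fewest, and their parts in the ratio were not tested.

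Upstream of tRNA genes the *prde-1* change was above 0. tRNA genes encode the adaptors of translation and are transcribed by polymerase III from promoters inside the gene. The upstream nucleosome of 486 of 612 tRNA genes (466 distinct nucleosomes) had a *prde-1* median of 0.66 (quartiles −0.24 and 2.19) and a wild-type median of 0.15. In *prde-1*, 43.2% were at least 2-fold higher at high salt and 12.8% at least 2-fold lower, beside 28.4% and 28.8% of all pairs. The median levels were 1.97 in high-salt and 1.17 in low-salt *prde-1*, against 1.99 in high-salt and 1.81 in low-salt wild type. The low-salt *prde-1* library was thus the lowest of the 4 upstream of tRNA genes.

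The tRNA value was seen on each chromosome and not in wider windows. Chromosome medians of the *prde-1* change ran from 0.45 on IV (60 genes) to 1.87 on II (46 genes), with 0.59 on X, which holds 219 of the 486 genes. Pairs outside the domains with the same GC over the nucleosome (33.3% to 44.7%) had a median of 0, against 0.58 for tRNA genes in that range. Downstream of the tRNA 5′ end the median was 0.10 in *prde-1* and −0.17 in wild type. In 1-kb bins of summed occupancy the tRNA value was 0.12. Many tRNA genes are near-identical copies, and the authors' mapping filter may have removed or shared their reads, so single tRNA genes are uncertain.

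Upstream of snoRNA genes, which guide RNA modification, the *prde-1* median was 0.29 (244 genes) and the wild-type median close to 0. The 84 snRNA genes, which encode the RNAs of the spliceosome, had 0 upstream and 0.65 downstream in *prde-1*, against 0.08 upstream and close to 0 downstream in wild type. miRNA genes, whose class was added after its values were seen, had 0.56 in *prde-1* and 0.19 in wild type over 170 genes. Restricted to pairs above 0 in both *prde-1* libraries the miRNA value was 0.14 and the tRNA value 0.55. Pseudogenes had 0 in *prde-1* and 0.17 in wild type over 1255 genes.

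Along the autosomes the *prde-1* change was lower in the arms than in the centres. The first 3 and last 3 of 10 equal parts of a chromosome were taken as its arms. Arms of I, II, III and V had a median of −0.11 in *prde-1* (143457 pairs) and centres 0 (90602 pairs), and −0.23 and 0.01 over pairs above 0. Wild type had −0.13 in the arms and 0 in the centres. By mean levels, 23 of 24 arm parts were below 0 in *prde-1* (median −0.21, range −0.38 to 0.01), against 4 of 16 central parts (median 0.05, range −0.03 to 0.11). The lowest were part 2 of III and part 10 of V, both at −0.38. Chromosome X was flat in *prde-1*, with all 10 parts between −0.15 and −0.07, and near the ratio over all pairs of −0.12, against −0.08 to 0.12 in wild type, where the ratio over all pairs was −0.03.

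**Figure D4:**
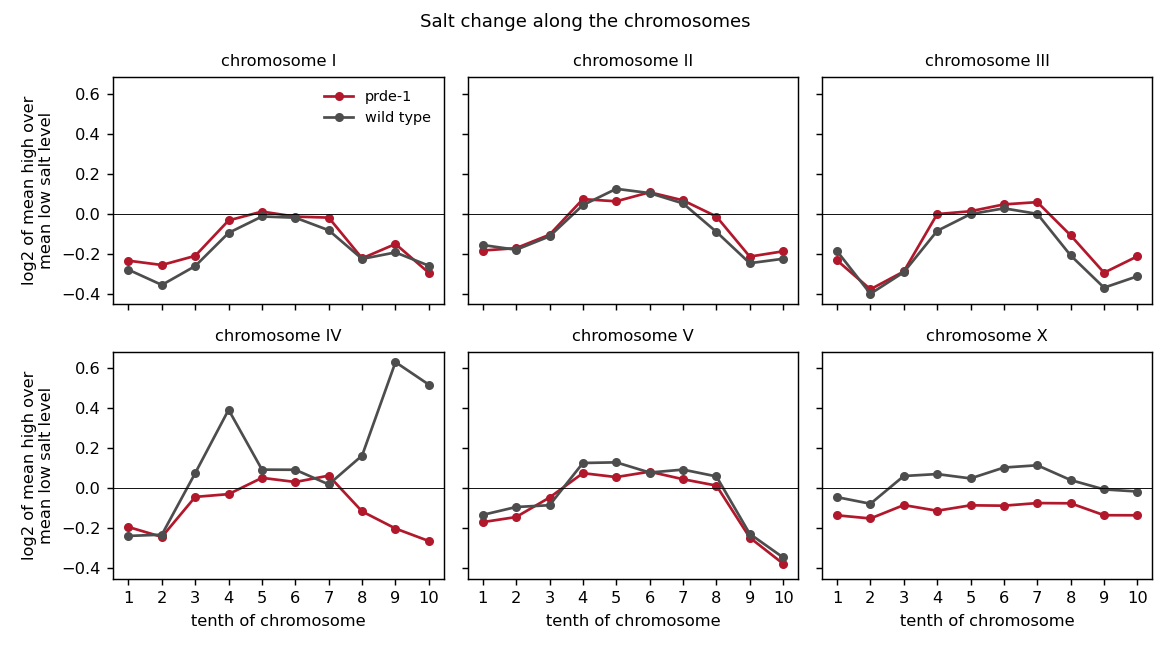
Log2 ratio of the mean H3 level at high over low salt (y axis) in 10 equal parts of each chromosome (x axis), in *prde-1* (red) and wild type (grey), one point per part and merged library pair. The lines run close together on I, II, III and V and part on IV, where part 9 has −0.20 in *prde-1* and 0.63 in wild type.

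On chromosome IV the domains lie across parts 3 and 4 and parts 8 to 10. Part 4 had a log2 mean ratio of −0.03 in *prde-1* and 0.39 in wild type, part 9 had −0.20 and 0.63, and part 10 had −0.26 and 0.52. Its first 2 parts, outside the domains, had −0.19 and −0.24 in *prde-1*, beside −0.24 and −0.23 in wild type.

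The salt changes of the genotypes resembled each other in windows and not in single nucleosomes. Across 939 windows of 100 kb outside the domains the median changes of *prde-1* and wild type had a Spearman correlation of 0.63, and across the 60 domain windows of −0.15. Across single pairs it was 0.02. At each salt, *prde-1* and wild type share a list of called nucleosomes, while high and low salt have separate lists that were normalized separately. The windows also share base composition. The parts of the shared lists and of base composition in the correlation across windows were not tested. The *prde-1* change of domain windows followed GC with a Spearman correlation of 0.68, against −0.43 in wild type. Over the 939 windows outside the domains these correlations were 0.15 in *prde-1* and −0.01 in wild type. In the domain windows GC itself had a correlation of −0.82 with the number of piRNA genes.

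The 4 windows with the lowest *prde-1* medians lay in chromosome arms, and 3 of the 4 highest in centres. Arms are by definition the larger part of a chromosome, with 143457 pairs against 90602 in the centres of I, II, III and V. Counts over so few windows, chosen as extremes, are therefore no further result on arms and centres. III:9000001-9100000 had the highest median, 0.54, with a mean level of 1.27 at high salt and 0.99 at low salt (wild type 0.09). IV:3900001-4000000, in an arm and outside the domains, had 0.44, II:7700001-7800000 had 0.43 and II:10400001-10500000 had 0.38. At the other end V:19800001-19900000 had −0.59, with a mean level of 1.41 at high salt and 2.07 at low salt (wild type −0.28). III:2000001-2100000, III:2200001-2300000 and V:19000001-19100000 had −0.55, −0.55 and −0.53, and wild type was below 0 in each of them. Low-salt *prde-1* had a mean level above 1.8 in all 4 of the lowest windows. That level enters the change by which they were chosen, so this is no further result.

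Nucleosomes well occupied in low-salt wild type had lower changes in *prde-1* across the genome. In 10 equal groups by wild-type low-salt occupancy the *prde-1* median was 0.11 in group 3, 0 in groups 5 to 7, −0.13 in group 8, −0.27 in group 9 and −0.44 in group 10, whose occupancy began at 446. In 10 groups by wild-type high-salt occupancy the *prde-1* medians stayed between −0.07 and 0. Levels of *prde-1* and wild type had a Spearman correlation across pairs of 0.42 at low salt and 0.25 at high salt.

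**Figure D5:**
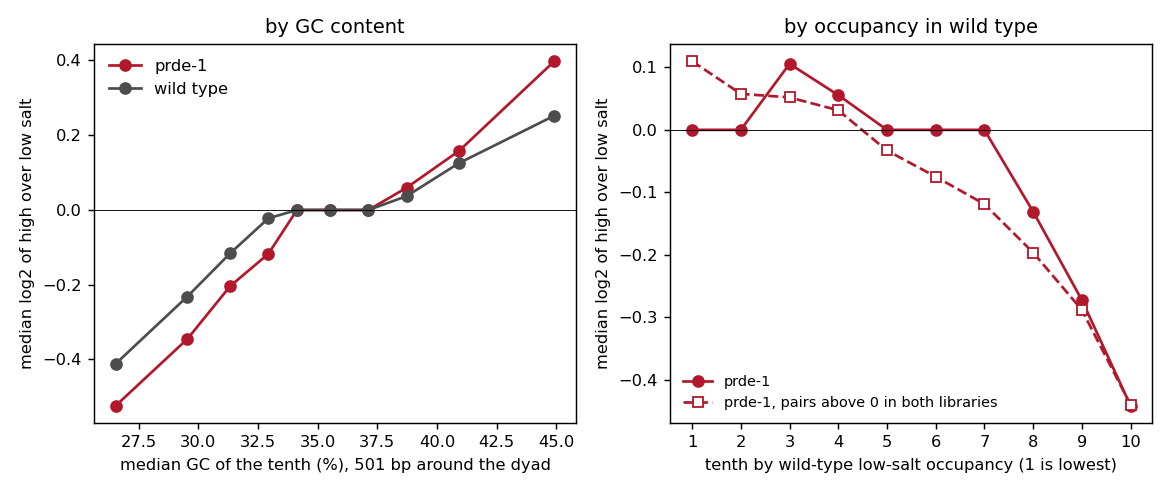
Left, median salt change (log2 of high over low salt, y axis) in 10 equal groups of pairs against their median GC content over about 0.5 kb (x axis, %), in *prde-1* (red) and wild type (grey). Right, median *prde-1* salt change in 10 equal groups by wild-type low-salt occupancy (x axis, 1 the lowest), over all pairs (filled) and over pairs above 0 in both *prde-1* libraries (open), with −0.44 in the highest group.

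By annotation outside the domains, exonic nucleosomes had a *prde-1* median of 0.06 (98006 pairs) and intronic ones −0.14 (117845 pairs), against 0.02 and −0.14 in wild type. Their median GC was 40.1% and 34.0%. Nucleosomes within 200 bp upstream of protein-coding genes had 0 in *prde-1* (11726 pairs) and the remaining ones −0.05 (108224 pairs).

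For protein-coding genes the median over paired nucleosomes from 200 bp upstream to the 3′ end was taken. Among 18038 genes with at least 3 pairs, 2812 (15.6%) had a *prde-1* median at least 2-fold higher at high salt and 1473 (8.17%) at least 2-fold lower. The gene median was above 0 in 48.7% and below 0 in 44.0%. A median over few pairs varies more, and the number of pairs per gene was not matched between the lists below and all genes.

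Cuticle collagen genes (col-), which encode the protein of the worm's outer layer, had a median of gene medians of 0.71 in *prde-1* and 0.51 in wild type. Of 131 measured members 52 were at least 2-fold higher and 9 at least 2-fold lower in *prde-1*, beside 15.6% and 8.17% of all genes. Their median mean level was 1.07 at high salt and 0.59 at low salt, and their median GC 46.3%. col-138 (IV:17182884-17183729, in domain 2) had the highest median, with a mean level of 1.69 at high and 0.10 at low salt over 4 pairs. col-147 (V:9632029-9633338) had the lowest, with 0.44 at high and 1.34 at low salt over 3 pairs. Their median changes, 7.02 and −6.64, rest on pairs at or near 0 in one library and depend on the 0.01 added.

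Ribosomal protein genes had a median of 0.36 in *prde-1* and −0.01 in wild type, with 53 of 74 above 0, beside 48.7% of all genes. Of the 74, 8 were at least 2-fold higher and 2 at least 2-fold lower, smaller shares than the 15.6% and 8.17% of all genes. Their levels were 2.53 at high and 2.10 at low salt. rps-22 was highest at 2.20 and rps-28 lowest at −1.07. Core histone genes had a median of 1.53 in *prde-1* and 0.63 in wild type. In *prde-1*, 11 of 15 measured members were at least 2-fold higher, beside 15.6% of all genes. Only 15 of 72 annotated core histone genes had 3 pairs, and most of these genes are near-identical copies whose reads are uncertain. his-74, which encodes an H3 variant, was highest at 2.54, and his-71, another H3.3 gene, lowest at −3.41.

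Linker histone genes had 0.82 in *prde-1* and 0.34 in wild type (7 genes). Major sperm protein genes, which drive the crawling of nematode sperm, had 1.17 in *prde-1* and 1.26 in wild type (7 of 31 genes measured). msp-36 was highest in the second list at 3.04 and hil-2 in the first at 1.82. Vitellogenin genes, which encode yolk proteins made in the intestine, had 0.49 in *prde-1* and 0.58 in wild type over 6 genes. The *prde-1* values ran from −0.69 at vit-5 to 3.98 at vit-6. At vit-6 the mean *prde-1* level was 0.81 at high and 0.35 at low salt, a smaller difference in log2 than that median. These lists have a median GC of 44.2% to 48.3%, above the 36.7% of all protein-coding genes, and the part of GC was not tested.

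Genes of P granules and the piRNA pathway, which include Argonautes and their partners, had a median of 0.43 in *prde-1* and 0.28 in wild type. Of 28 genes 22 were above 0, beside 48.7% of all genes, and 7 were at least 2-fold higher, beside 15.6%. None was at least 2-fold lower, beside 8.17% of all genes, which would be few of 28 genes. tofu-1 was highest at 2.39 and mut-14, an RNA helicase of small RNA amplification, lowest at −0.43. Genes for piRNA transcription had a median of 0.24 in *prde-1* and 0.28 in wild type over 6 genes. snpc-4, a subunit of USTC, had 0.61 in *prde-1* over 11 pairs. Of these, 3 were at least 2-fold higher and 3 at least 2-fold lower, beside 28.4% and 28.8% of all pairs. tofu-4 had 0.41 and tofu-5 0.06. uad-2, another piRNA factor, was highest at 0.65 with mean levels of 1.93 at high and 1.15 at low salt, and tbp-1, which encodes the TATA-binding protein, lowest at −0.75 with 1.04 and 1.39.

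The prde-1 gene itself (V:15538244-15547086) had 38 pairs with a median of −0.16 in *prde-1* and 0.06 in wild type. Its mean level was 1.49 in high-salt and 1.79 in low-salt *prde-1*, against 1.35 in high-salt and 1.46 in low-salt wild type. In *prde-1*, 8 of its pairs were at least 2-fold higher and 9 at least 2-fold lower, beside 28.4% and 28.8% of all pairs. H3 occupancy does not report whether the gene product is made, so it checks no label. isw-1, the chromatin remodeler gene, had 0.50 over 22 pairs.

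In *prde-1* the remaining lists were closer to the median of 0 over all protein-coding genes. Genes of the meiotic axis and synaptonemal complex had 0.11 over 14 genes, with lab-1 highest at 1.30 and htp-3 lowest at −0.65. Hox genes had 0.10 over 6 genes, from −0.44 at mab-5 to 1.07 at egl-5. Chromatin genes had 0.15 over 11 genes, from −0.95 at mes-3 to 1.95 at htz-1, which encodes the variant H2A.Z. C-type lectins had 0.14 over 224 genes, with 60 at least 2-fold higher, beside 15.6% of all genes, and 17 at least 2-fold lower, near the 8.17% of all genes, and chemoreceptors 0.05 over 671. F-box A genes (fbxa-) had −0.15 over 156 genes, with 87 below 0 and 58 above, beside 44.0% and 48.7% of all genes. Wild type had 0.0037 for the meiotic list, 0.25 for Hox genes and 0.26 for chromatin genes. It had 0.30 for C-type lectins, 0.18 for chemoreceptors and 0 for F-box A genes.

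Among the 2563 protein-coding genes with at least 10 pairs and a level above the median, ima-2, an importin alpha, had the highest gene median. It was 3.85 over 11 pairs, 8 of them at least 2-fold higher and 0 at least 2-fold lower. The mean level was 1.94 in high-salt and 0.63 in low-salt *prde-1*, against 1.40 in high-salt and 1.44 in low-salt wild type. gln-3, a glutamine synthetase gene in domain 2, had 2.12, with 1.91 at high and 0.52 at low salt and 10 of 11 pairs at least 2-fold higher. sti-1, a co-chaperone of Hsp90, had 2.09, copb-2, a coat protein of Golgi vesicles, 2.07, fbxc-45, an F-box gene, 1.92, and pyc-1, pyruvate carboxylase, 1.84. In low-salt *prde-1* all 6 had a mean level between 0.52 and 0.87, but low-salt values enter the change by which these genes were chosen.

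exos-7, a subunit of the RNA exosome, had the lowest gene median at −1.77 over 13 pairs, with 1 pair at least 2-fold higher and 7 at least 2-fold lower. Its mean level was 1.04 in high-salt and 2.04 in low-salt *prde-1*, against 1.41 in high-salt and 1.66 in low-salt wild type. srh-78 and srw-41, both chemoreceptor genes, had −1.56 and −1.46. gen-1, which encodes a Holliday junction resolvase, had −1.52 with 1.82 at high and 2.22 at low salt. pnn-1 and lrr-1 had −1.48 and −1.46. Wild type had 1.44 at gen-1 and 0.54 at lrr-1, and between −0.34 and 0 at the other 4 genes.

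Among single nucleosomes with a mean *prde-1* level of at least 3, the 4 highest and the 4 lowest changes all had 0 in one library. The dyad at V:2673906, in an exon of kel-8 and upstream of a tRNA gene, had 1049 in high-salt and 0 in low-salt *prde-1*, against 1157 in high-salt and 931 in low-salt wild type. The dyad at III:2963739, in an intron of H05C05.2, had 0 in high-salt and 1647 in low-salt *prde-1*, against 261 in high-salt and 1027 in low-salt wild type. Of the 8 single nucleosomes none lay in a piRNA domain. The domains hold only 22520 of the 358321 pairs, so few of 8 would lie there and this count is no result. A value of 0 is H3 not above input at that summit and does not show that no nucleosome was there.

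Since pairs were formed only within 40 bp, nucleosomes that moved further are not among them, and the distance between paired summits is limited by that choice. The summits of a pair in the *prde-1* libraries were a median of 18 bp apart, outside and inside the domains, and 20 bp apart upstream of piRNA genes, and the share over 50 bp apart was 13.1% upstream of piRNA genes, 11.1% in the domains and 9.73% outside. Neighbouring dyads were a median of 187 bp apart in high-salt and 194 bp in low-salt *prde-1* outside the domains, and 190 and 194 bp inside. The fuzziness score, in which the authors express how widely fragments scatter about a dyad, was lower at high salt, with a median of 38.1 at high and 39.8 at low salt outside the domains and 38.8 and 40.6 upstream of piRNA genes. The median change of the score over all piRNA upstream nucleosomes was −1.42 in *prde-1* and −1.81 in wild type. Over those with both *prde-1* levels at least 0.5 the order was the other way round, with −1.96 in *prde-1* and −1.54 in wild type.

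Nucleosomes left without a partner were weak. Their median occupancy was 90.7 in high-salt *prde-1* (210314 nucleosomes) and 86.3 in low-salt *prde-1* (187251), against 158.8 and 141.5 for the paired ones, and 25.2% of them were at 0 in each library. Inside the domains 65.6% of high-salt and 67.2% of low-salt nucleosomes were paired, and outside 62.8% and 65.6%. The domains held 5.47% of all listed *prde-1* occupancy at high salt and 5.69% at low salt.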

How the data were processed

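Native H3 ChIP-seq of isolated germ nuclei was used. According to its methods section, alignment to ce11 by the authors used Bowtie2. They then applied a mapping-quality filter and a duplicate filter, brought libraries to equal size, merged the 2 replicates of a group, corrected for GC content, kept fragments of mononucleosome size and called nucleosomes with DANPOS3 against input. Tool versions are not given in the sources used here. The authors deposited the occupancy at the summit as a signal (H3 minus input, scaled to one total per library), a fuzziness score, and positions in bp. The columns of their own fold changes, p-values and FDR were not used, nor were the ISW-1 tables.

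Pairing, division by the library median and log2 of high over low with 0.01 added were computed here with Python 3.11.15, numpy 2.4.6, pandas 2.3.3 and scipy 1.17.1, and pairing and medians were tested on simulated data. Calls were changes of at least 2-fold. Genes came from the Ensembl 115 annotation of the same assembly, and the highest centre on chromosome IV (17493574) lay within its length (17493829). Domain windows separated by no more than 300 kb were joined, and domains shorter than 1 Mb were dropped. Upstream windows were read from the RefSeq copy of that assembly.

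Named genes were the 4 highest and 4 lowest piRNA genes (1 per dyad, level above the median of such pairs, 0.91), the 6 highest and 6 lowest protein-coding genes with a letters-hyphen-number symbol, at least 10 pairs and a level above the median of such genes, the highest and lowest of each list with at least 3 pairs, the 4 highest and 4 lowest 100-kb windows with at least 200 pairs, and single pairs with a level of at least 3 that lay at least 1 kb apart. The members, lists and named-gene rules were chosen with earlier results of these data known. With 1 merged library per group no test was possible, nucleosomes are not replicates, and since depth is unknown, limits that depend on it are left out. Processing alternatives numbered 18.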

Additional observations from a re-analysis of the deposited data

Results flagged for a closer look

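The salt change upstream of piRNA genes in the domains had opposite signs in the genotypes, with medians of −0.29 in *prde-1* and 0.74 in wild type. By domain the *prde-1* median was 0 in domain 1 and −0.33 in domain 2. Nucleosomes outside the domains with a similar GC had *prde-1* medians of −0.18 (GC over the nucleosome) and −0.36 (over about 0.5 kb). The difference between the domains and the rest of the genome was −0.019 in *prde-1* and 0.35 in wild type. The interval of the *prde-1* value over nucleosomes (−0.05 to 0) reaches 0, and the value was 0 with division by the mean or with 1 added to undivided values, so no direction is read from it. Each genotype has 1 merged library per salt, and the difference between genotypes was not tested. Low-salt levels upstream of piRNA genes already differed, at 0.98 in *prde-1* and 3.08 in wild type.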

How the results depend on the processing

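Each result was run under those alternatives that bear on it, from 12 to 15 a result, and under 1 for the difference between GC-rich and GC-poor groups. In these runs no value whose 95% interval excluded 0 changed sign. The interval covers only the counting of nucleosomes, or of genes for the upstream values, where a shared nucleosome counts more than once. It also treats neighbouring nucleosomes as independent, which they are not. No paired analysis was possible because the authors merged the replicates of each group before depositing, and for the same reason no replicate could be left out. The causes of the moves below were not tested. The median over all *prde-1* pairs moved to −0.14 over pairs above 0 in both *prde-1* libraries, −0.13 over pairs with a mean level of at least 0.5, 0.0902 as a mean and −0.014 in 1-kb bins. The share at least 2-fold higher in *prde-1* was 14.3% of 1-kb bins. The share at least 2-fold lower was 10.2% of those bins, and 17.4% of pairs at a 4-fold threshold. The domain difference was −0.0759 (level of at least 0.5), −0.19 (mean) and −0.10 (bins) in *prde-1*. In wild type it was 0.29 (pairing on *prde-1* summits), 0.38 (1 added to undivided values), 0.31 (above 0), 0.20 (mean), 0.44 (bins) and 0.38 (at least 50 piRNA genes a window). Upstream of piRNA genes *prde-1* had −0.12 (1 added to undivided values), −0.17 (division by the mean), −0.35 (above 0), −0.48 (level of at least 0.5) and −0.55 (mean), and wild type 0.70 (*prde-1* summits), 0.78 (1 added), 0.77 (division by the mean), 0.66 (above 0), 0.68 (level of at least 0.5), 0.57 (mean), 0.59 (bins) and 0.71 (300 bp upstream). Upstream of protein-coding genes *prde-1* had 0.17 (1 added), 0.13 (division by the mean), 0.0695 (level of at least 0.5), 0.23 (mean) and 0.0859 (bins), and wild type −0.0114 (level of at least 0.5), 0.0724 (mean) and −0.0084 (bins). Arms minus centres was −0.0904 (pairing within 73 bp), −0.15 (1 added), −0.24 (above 0), −0.26 (level of at least 0.5), −0.22 (mean) and −0.21 (bins) in *prde-1*, and −0.10 (1 added), −0.11 (division by the mean), −0.25 (above 0), −0.26 (level of at least 0.5), −0.28 (mean) and −0.26 (bins) in wild type. Upstream of tRNA genes, where the alternatives were added after seeing the data, *prde-1* ran from 0.12 in bins to 1.15 as a mean. The difference between the GC-rich and GC-poor groups was 0.51 with the GC of the nucleosome and 0.92 with that of about 0.5 kb.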
